A study of Mus musculus with 23 samples.

Results

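The genes described here are 6 inhibitors of bone morphogenetic protein (BMP) signalling, Smad6, Smad7, Bambi, Bmper, Fst and Nog, taken as all probe sets annotated to them over all 23 arrays. They are 6 of the 18195 genes named on the array and hold 8 of its 45101 probe sets, with 2 each for Smad7 and Fst and 1 for each of the others. The study followed mouse epiblast-like cells (EpiLCs), which resemble the pregastrulating epiblast, as they were brought toward a primordial germ cell fate in aggregates. EpiLCs of a wild-type (WT) line and of a Wnt3 knockout (KO) line were arrayed at 0 h and, as aggregates, at 12, 24 and 36 h. Both lines were male, on a C57BL/6 background and carried BV, a Blimp1-mVenus transgene, and each genotype was represented by 1 line as far as the labels show. EpiLCs of both lines had been induced with activin A (20 ng/ml) and bFGF (12 ng/ml), and all aggregates were kept in serum replacement medium with LIF. WT aggregates received no cytokine, BMP4 (500 ng/ml) or WNT3A (50 ng/ml). KO aggregates received no cytokine, BMP4, WNT3A, or BMP4 with WNT3A at the same doses. Each condition had 1 array per time, so the 3 times stood in for replicates. The p-values of differences rest on the spread left for a gene after condition and time, pooled over all 7 conditions. They do not measure the spread of the named difference alone or between replicate cultures. For slopes the spread is the scatter about the fitted lines.

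BMP ligands bind receptor kinases that phosphorylate SMAD1 and its relatives, which enter the nucleus with SMAD4 and switch on targets such as the Id genes. Inhibitors act at several levels of this route, and some of them are themselves induced by BMP signalling, which makes them negative feedback regulators. SMAD6 and SMAD7 are inhibitory SMADs that act inside the cell, SMAD7 also on activin and TGF-beta receptors. BAMBI is a membrane pseudoreceptor without a kinase domain, FST (follistatin) and NOG (noggin) are secreted and bind ligands outside the cell, and BMPER is a secreted BMP-binding modulator. In the early embryo BMP4 from extraembryonic ectoderm induces germ cell precursors in the epiblast, and WNT3 is required in the epiblast for this response.

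The Smad6 promoter is shown because Smad6 was the member whose rise with BMP4 passed the test in both lines. The window runs from 250 bases before to 50 bases after a RefSeq start site of Smad6. It lies at chr9:64022010-64022309 on the minus strand (GRCm38.p6) and is written 5′ to 3′ with the motif GTCTAGAC in capitals.
Smad6: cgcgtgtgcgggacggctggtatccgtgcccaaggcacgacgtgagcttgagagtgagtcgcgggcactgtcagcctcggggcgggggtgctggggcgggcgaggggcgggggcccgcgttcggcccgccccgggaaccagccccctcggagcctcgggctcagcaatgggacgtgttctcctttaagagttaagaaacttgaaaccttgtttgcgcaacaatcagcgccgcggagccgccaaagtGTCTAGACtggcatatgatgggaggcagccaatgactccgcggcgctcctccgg
GTCTAGAC is a palindrome first described as a SMAD-binding element, so that both strands read alike. Its match begins 4 bases before the start site of this window. The Smad6 interval given below reaches 64022085, upstream of that start site, so by this interval the match lies inside the gene. Matches of GTCTAGAC were found in 0.213% of the 32851 RefSeq promoter windows of this length. On either strand the window held no match of GGCGCC, a motif bound by BMP SMADs, which 11.9% of the windows held. It held no match of CAGAC, a shorter SMAD-binding motif, which 49.6% of them held. It held none of ATCAAAG, the motif of the WNT effectors TCF and LEF, which 3.73% of them held. The GC content of the Smad6 window was 66.3%. The Bmper window held no match of any of these motifs. A match is only a run of letters and says nothing of binding.

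The deposited signal was used on the scale log2(signal + 16) after quantile normalization across the 23 arrays, and every difference below is on that scale and is the mean over the 3 times, while the values given by time are the signal as deposited. Array medians lay between 36.8 and 41.4 and upper quartiles between 226 and 292. The epiblast list, which checks the labelled cell type, had 5 or 6 of its 6 genes above the array median on every array, although its summed signal moved with the treatments, as given beside Bmper. The naive pluripotency list had 2 to 4 of its 4 genes above the median, and the fibroblast and feeder list 2 or 3 of its 5. Genes above the median thus do not by themselves single out the labelled cell type. Wnt3 read 11.2 to 27.9 on the 13 KO arrays and 10.4 to 146 on the 10 WT arrays, and 5 of the WT arrays, with BMP4 at 24 and 36 h, with WNT3A at 12 and 24 h and untreated at 36 h, read above the KO range. The labels do not say which part of Wnt3 was deleted, so this reading checks the lines only in part. The ratio of the 3′ to the 5′ Gapdh probe sets, a sign of RNA quality, was 4.03 with WNT3A in WT at 24 h, 2.68 without cytokine in KO at 24 h and 2.30 without cytokine in WT at 36 h, against 1.09 to 1.71 on the others.

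The labels of 6 KO arrays disagree with themselves. The titles name 3 of them WNT3A and 3 of them BMP4 with WNT3A, whereas the array names in their descriptions give these the other way round. The titles are followed here, and the groups are called "titled WNT3A" and "titled BMP4+WNT3A". Id1, a direct BMP target, read 5480, 7591 and 9345 on the arrays titled WNT3A at 12, 24 and 36 h. On the arrays titled BMP4+WNT3A it read 186, 256 and 1323. The KO arrays with BMP4 alone read 5557, 8192 and 10156, and the WT arrays with WNT3A 189, 350 and 2077. The Id1 levels thus go with the array names and against the titles, and exchanging the labels swaps the names of these groups. For the members, the differences between them and from BMP4 in KO cells are given both ways, while slopes, marker sums and pathway genes are given under the titles only.

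Smad6, Smad7, Bambi and Fst passed the filter on dim probe sets, which asked for a signal above the array median on at least 3 arrays, and all 4 were above it on all 23 arrays. Bmper passed it only through 3 arrays at 36 h, where it was high, and Nog was above it on none, so neither entered the counts below. BMP4 against no cytokine in WT cells passed the test (limma, adjusted p under 0.05 over the 13256 genes tested) for 2 of the 4, Smad6 and Bambi, where 3.42% of all genes passed. In KO cells the same comparison called 1 of 4, Smad6, with 0.558% of genes. There 3 of the 4 and 1414 genes had an unadjusted p under 0.05 in limma, against 2 of the 4 and 2251 genes in WT cells. WNT3A in WT cells called 0 of 4, with 0.483% of genes. For WNT3A 2 of the 4 and 1840 of the 13256 genes had an unadjusted p under 0.05 in limma.

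Arrays titled WNT3A against untreated KO cells gave 2 of 4, Smad6 and Fst, with 9.51% of genes. Arrays titled BMP4+WNT3A against untreated KO cells gave 1 of 4, Fst, with 6.77% of genes. These comparisons share the untreated arrays, and the comparisons in WT cells share theirs. BMP4 against WNT3A in WT cells gave 1 of 4, Smad6, with 0.747% of genes. Arrays titled BMP4+WNT3A against those titled WNT3A gave 1 of 4, Smad6, with 0.339% of genes, and against BMP4 in KO cells gave 4 of 4, with 7.74% of genes.

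Smad6 (chr9:63953076-64022085, GRCm38.p6, 1 probe set) rose with BMP4 in both lines and at every time. Without cytokine in WT cells it read 47.8, 83.3 and 108 at 12, 24 and 36 h. With BMP4 it read 217, 276 and 564. All BMP4 arrays lay above all untreated ones, and the ratio to untreated was 4.53, 3.32 and 5.21 at the successive times. The difference was 1.90 ± 0.18 (SE; adjusted p = 2.07e-05), and it passed under all 17 alternatives tried, with values from 1.49 to 2.10.

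With WNT3A in WT cells Smad6 read 90.5, 123 and 110, the last close to the untreated 36 h value of 108. The difference from untreated was 0.40 ± 0.18 (adjusted p = 0.346). BMP4 exceeded WNT3A by 1.51 ± 0.18 (adjusted p = 0.000945), with no overlap between the arrays. Without the 24 h arrays this difference was 1.72 (adjusted p = 0.0588).

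In the KO line Smad6 read 42.5, 85.0 and 67.6 without cytokine and 184, 217 and 333 with BMP4. The groups did not overlap, and the difference was 1.61 ± 0.18 (adjusted p = 0.000561). Without the 24 h arrays it was 1.84 (adjusted p = 0.0528). The arrays titled WNT3A read 232, 260 and 428, and those titled BMP4+WNT3A 85.0, 112 and 111. The former lay above every untreated KO array, with a difference of 1.93 ± 0.18 (adjusted p = 1.85e-05). The latter reached down to the untreated values, with a difference of 0.51 ± 0.18 (adjusted p = 0.115). With the labels exchanged, the arrays carrying BMP4 are those in which Smad6 was high. The cells before aggregation gave 65.3 in the WT and 68.1 in the KO line.

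Smad7 was read by 2 probe sets on chr18:75367365-75395935, and the brighter on average stood for the gene. Without cytokine in WT cells it read 152, 220 and 228, and with BMP4 276, 331 and 313. With WNT3A it read 276, 315 and 44.6, so that the lowest value of the gene fell in the last WNT3A array. BMP4 gave no overlap with untreated cells, but the difference of 0.63 ± 0.45 (adjusted p = 0.516) did not pass. Without the 36 h arrays the BMP4 difference was 0.74 (adjusted p = 0.0184). The WNT3A difference was -0.26 ± 0.45 (adjusted p = 0.842), and without the 36 h arrays it was 0.60 (adjusted p = 0.0597).

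In KO cells Smad7 read 229, 320 and 83.9 without cytokine and 526, 617 and 541 with BMP4. Every BMP4 array was above every untreated one, the difference being 1.48 ± 0.45 (adjusted p = 0.179). Without the 36 h arrays, where untreated cells were low, it was 1.07 (adjusted p = 0.0088). The arrays titled WNT3A read 419, 541 and 580, and those titled BMP4+WNT3A 260, 228 and 53.4. Smad7 was thus at 83.9 or below at 36 h in 3 conditions, and these were untreated KO, WT with WNT3A and the arrays titled BMP4+WNT3A. The other probe set read 87.4, 87.4 and 70.5 on those 3 arrays and correlated with the first at r = 0.99 over the 23 arrays. The 0 h arrays gave 296 for WT and 300.2 for KO cells.

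Bambi (chr18:3507011-3516404, 1 probe set) stayed in a narrow range in WT cells without BMP4 and was highest at 36 h with it. WT cells read 322, 347 and 317 without cytokine and 367, 300.2 and 315 with WNT3A, and these values overlapped. With BMP4 they read 488, 519 and 1323, all above the other WT arrays. The ratio to untreated was 1.52, 1.49 and 4.17. The difference was 1.07 ± 0.28 (adjusted p = 0.049), and it passed under 4 of 17 alternatives, with adjusted p from 0.0396 to 0.282. The difference between BMP4 and WNT3A was 1.14 (adjusted p = 0.0749), and without the 36 h arrays it was 0.67 (adjusted p = 0.0447).

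In KO cells Bambi read 329, 380.0 and 251 without cytokine and 491, 568 and 1201 with BMP4. The ratios were 1.49, 1.49 and 4.79, and the difference of 1.10 ± 0.28 (adjusted p = 0.107) missed the threshold. The arrays titled WNT3A read 498, 512 and 771, and those titled BMP4+WNT3A 352, 258 and 320. The former did not overlap the untreated arrays and the latter did, with differences of 0.82 ± 0.28 (adjusted p = 0.0843) and -0.14 (adjusted p = 0.845). Before aggregation Bambi stood at 375 in the WT and 455 in the KO line.

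**Figure D1:**
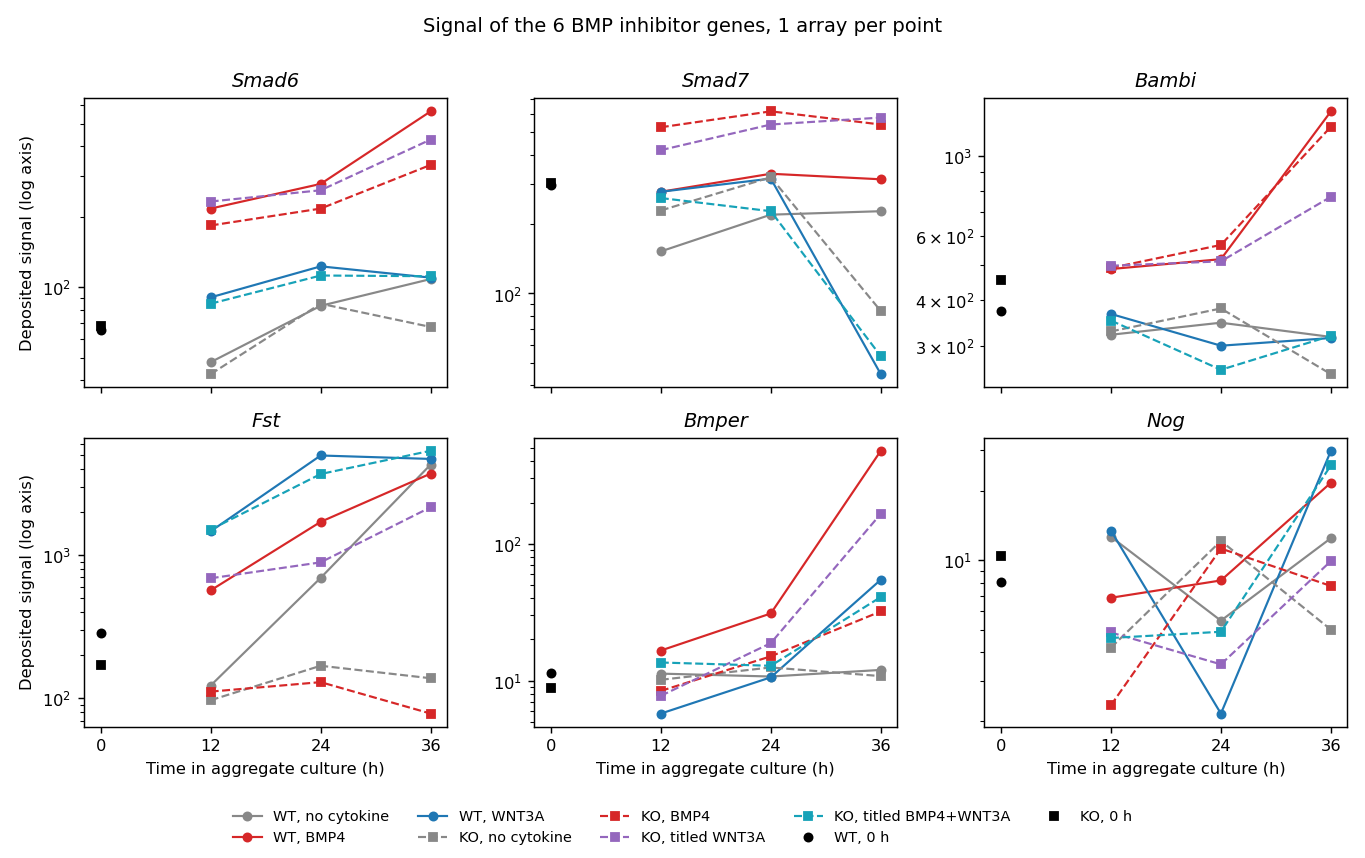
Deposited signal of the members by time in hours, with a log axis for the signal, 1 panel per gene, and 1 line per condition of a single array per time. Smad6 and Bambi lie highest at 36 h with BMP4 in WT cells. Fst stays between 78.2 and 169 at 12 to 36 h in KO cells without cytokine or with BMP4.

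Fst was read by 2 probe sets on chr13:114452262-114458989, of which the brighter stands for the gene. In WT cells it read 123, 695 and 4300 without cytokine. With BMP4 it read 568, 1710 and 3717, and with WNT3A 1468, 4973 and 4705. On this probe set the untreated 36 h value lay between the treated ones, which the dimmer set described below does not show, and the ratio to untreated fell from 4.63 to 0.865 with BMP4 and from 12.0 to 1.09 with WNT3A between 12 and 36 h. Over the times the differences were 1.07 ± 0.63 (adjusted p = 0.418) and 2.09 ± 0.63 (adjusted p = 0.154). Without the 36 h arrays the WNT3A difference was 3.08 (adjusted p = 0.00313). The untreated 36 h array is among the 3 of high Gapdh ratio, and without those 3 the BMP4 and WNT3A differences were 2.05 (adjusted p = 0.0792) and 2.87 (adjusted p = 0.0813).

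Before aggregation Fst stood at 284 in the WT and 171 in the KO line. KO aggregates read 97.0, 169 and 138 without cytokine and 111, 130 and 78.2 with BMP4, and these arrays overlapped. The KO difference with BMP4 was -0.32 (adjusted p = 0.926). The arrays titled WNT3A read 690, 891 and 2165, and those titled BMP4+WNT3A 1510, 3692 and 5367. Both lay above every untreated KO array, by 2.89 ± 0.63 (adjusted p = 0.00783) and 4.35 ± 0.63 (adjusted p = 0.000666). Without the 24 h arrays the same differences were 3.16 (adjusted p = 0.17) and 4.36 (adjusted p = 0.141). Both of these groups carry WNT3A under either reading of the labels.

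The dimmer Fst probe set was above the array median on 14 of 23 arrays and correlated with the first at r = 0.95. It read 22.5, 56.5 and 284 in untreated WT cells and 15.8, 10.7 and 18.3 in untreated KO cells. The KO range with BMP4 was 13.4 to 22.9. The arrays titled WNT3A read 140, 163 and 320 and those titled BMP4+WNT3A 272, 709 and 744, above every KO array without WNT3A. In WT cells this set read 74.5, 380 and 1168 with BMP4 and 164, 333 and 867 with WNT3A, so that here the untreated 36 h array, at 284, lay below both treated ones. It was below the array median on all untreated KO arrays, so its tests are not reported and its values stand as description. In WT cells its difference from untreated was 1.91 with BMP4 and 2.01 with WNT3A, against 1.07 and 2.09 on the brighter set. The ratio of the brighter to the dimmer set ran from 3.18 to 15.8, and the 3 arrays of highest Gapdh 3′/5′ ratio held its 3 highest values, 14.9 to 15.8, with 15.1 on the untreated WT array at 36 h. The other 20 arrays read 3.18 to 13.3, with a median of 5.90. The part of RNA quality in the Fst values was not tested.

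**Figure D2:**
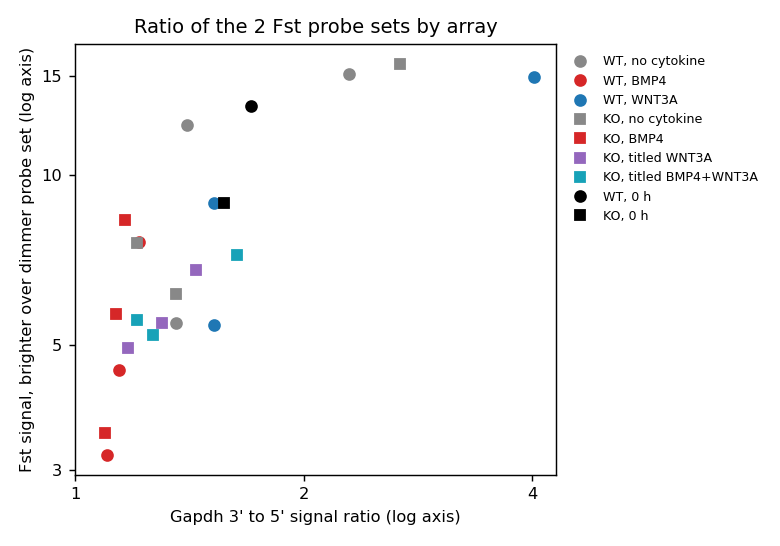
Ratio of the 2 Fst probe sets on each array against the Gapdh 3′/5′ ratio, 1 point per array. The 3 arrays of highest Gapdh ratio lie at 14.9 to 15.8, above the other 20.

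Bmper (chr9:23223076-23485215, 1 probe set) was at background on most arrays and high on a few at 36 h. With BMP4 in WT cells it read 16.6, 30.9 and 478, and untreated WT cells read 11.2, 10.7 and 12.0. With WNT3A it read 5.7, 10.6 and 54.6. In KO cells it read 10.1, 12.5 and 10.8 untreated and 8.4, 15.0 and 32.0 with BMP4. The arrays titled WNT3A read 7.7, 18.8 and 165, and those titled BMP4+WNT3A 13.5, 12.8 and 40.8. The 36 h value was the highest of its condition in each of the cytokine-treated groups. Both lines were low at 0 h, at 11.3 in WT and 8.8 in KO cells. The gene passed the filter only on the 3 arrays at 36 h that read above the median, so the values are given without a test.

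The sum of the streak and mesoderm list, of 6 genes, ran from 1594 to 11954 with BMP4 in WT cells, from 844 to 2356 with WNT3A and from 349 to 2305 without cytokine. In the KO line it ran from 240 to 316 untreated, from 307 to 413 with BMP4, from 1341 to 4340 on the arrays titled WNT3A and from 955 to 2015 on those titled BMP4+WNT3A. At 0 h it was 302 in WT and 330 in KO cells. The highest sum, on the WT array with BMP4 at 36 h, went with the highest Bmper. Other lists moved with the treatments too. The sum of the 6 epiblast genes ran from 22714 to 29677 in untreated WT cells, from 12876 to 21913 with BMP4 and from 12363 to 23464 with WNT3A, and from 29019 to 31994 in untreated KO cells. In KO cells it ran from 27757 to 29859 with BMP4, from 17995 to 22298 on the arrays titled WNT3A and from 14727 to 24206 on those titled BMP4+WNT3A. The 3 neural genes summed to 1573 to 2105 in untreated WT cells, 114 to 681 with BMP4 and 488 to 928 with WNT3A. In KO cells they summed to 1559 to 2872 untreated, 1270 to 1610 with BMP4, 135 to 490 on the arrays titled WNT3A and 330 to 901 on those titled BMP4+WNT3A. The 5 trophoblast genes reached 1213 with BMP4 and 1187 with WNT3A in WT cells, against at most 535 in untreated cells. In KO cells they reached 1357 on the arrays titled BMP4+WNT3A and 982 on those titled WNT3A, but only 332 with BMP4. The primitive and visceral endoderm list, of 6 genes, ran from 281 to 466 over all arrays. The part of these lists in the levels of Fst and Bmper was not tested. In these bulk samples fewer cells of a type and less RNA per cell cannot be told apart.

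Nog (chr11:89300638-89302559, 1 probe set) was above the array median on none of the 23 arrays. It read 2.2 to 29.9 over them. Its highest values were 29.9 with WNT3A in WT cells, 25.8 on the array titled BMP4+WNT3A and 21.7 with BMP4 in WT cells, all at 36 h. It was therefore not tested, and a change of Nog was not detectable at this signal.

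Arrays titled BMP4+WNT3A were set against those titled WNT3A to ask what the addition of BMP4 does under the titles. The difference of Smad6 was -1.43 ± 0.18 (adjusted p = 0.00291) under the titles and 1.43 with the labels exchanged. Without the 12 h arrays the value was -1.49 (adjusted p = 0.0535) and without the 24 h arrays -1.56 (adjusted p = 0.174). Smad7 (-1.67 ± 0.45, adjusted p = 0.213), Bambi (-0.95, adjusted p = 0.293) and Fst (1.46 ± 0.63, adjusted p = 0.613) did not pass. Smad6, Smad7 and Bambi did not overlap between the groups. Fst did overlap. The share of all genes without overlap was not counted, so every statement of overlap in this text only describes the arrays.

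Against BMP4 alone in KO cells, the arrays titled BMP4+WNT3A were lower in the 3 inhibitors of the cell interior and membrane and higher in Fst. The difference was -1.11 ± 0.18 for Smad6 (adjusted p = 0.00132), -1.81 ± 0.45 for Smad7 (adjusted p = 0.0183) and -1.23 ± 0.28 for Bambi (adjusted p = 0.0128). Fst was higher by 4.67 ± 0.63 (adjusted p = 0.000311). None of these 4 overlapped between the groups, again without a count over all genes to set this against. With the labels exchanged the values for Smad6, Smad7 and Bambi were 0.32 (adjusted p = 0.399), -0.15 (adjusted p = 0.919) and -0.28 (adjusted p = 0.677), and Fst alone passed. Without the 24 h arrays Smad6 was -1.23 (adjusted p = 0.0657), and the adjusted p of Smad7, Bambi and Fst were 0.22, 0.217 and 0.0867.

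The lines were compared to ask what the loss of Wnt3 changes. Each genotype is 1 line, so genotype and line cannot be told apart. Without cytokine 0 of 4 members passed, and 0.0981% of genes did. There 1 of the 4 and 1626 genes had an unadjusted p under 0.05 in limma. With BMP4 1 of 4 passed, Fst, and 7.23% of genes did. Fst was lower in KO cells with BMP4, with a difference of -3.76 ± 0.63 (adjusted p = 0.00183), and no KO array reached the WT values. Without cytokine the difference was -2.37 ± 0.63 (adjusted p = 0.159), against -1.60 on the dimmer probe set. The brighter set gave -1.40 (adjusted p = 0.495) without the 3 arrays of high Gapdh ratio. Without the 24 h arrays the BMP4 difference was -3.81 (adjusted p = 0.15), and with only the arrays compared its adjusted p was 0.0649. Smad6 differed by -0.49 ± 0.18 (adjusted p = 0.118) with BMP4, and Bambi by -0.04 (adjusted p = 0.965). Smad7 was higher in KO cells on every BMP4 array, by 0.78 ± 0.45 (adjusted p = 0.338), and without the 36 h arrays by 0.82 (adjusted p = 0.00808).

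The difference between the lines in the response to BMP4 was tested as an interaction, which called 0 of 4 members and 0% of genes. In limma 781 genes and 0 of the 4 members had an unadjusted p under 0.05. The interaction was -0.29 ± 0.26 for Smad6 (adjusted p = 0.949), 0.03 ± 0.40 for Bambi (adjusted p = 0.994), 0.85 ± 0.63 for Smad7 (adjusted p = 0.932) and -1.39 ± 0.89 for Fst (adjusted p = 0.902). The 95% interval ran from -0.84 to 0.25 for Smad6, from -0.82 to 0.88 for Bambi, from -0.49 to 2.19 for Smad7 and from -3.27 to 0.49 for Fst, so these tests do not show the lines to respond alike.

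**Figure D3:**
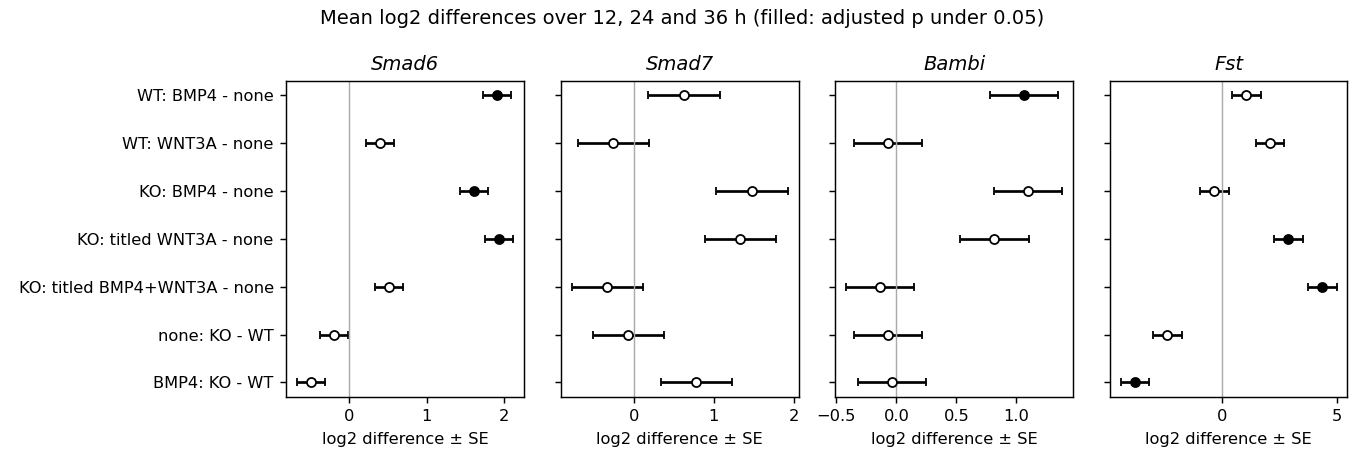
Differences of Smad6, Smad7, Bambi and Fst in 7 of the 12 comparisons on the log2(signal + 16) scale, with standard errors; filled points passed at an adjusted p under 0.05. Smad6 lies above 1.5 with BMP4 in both lines, and Fst above 2 in the KO arrays titled WNT3A and BMP4+WNT3A.

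Over the 7 conditions, 36 h against 12 h called 3 of 4 members, where 38.7% of genes passed. Smad6 was higher by 0.57 ± 0.12 (adjusted p = 0.00134) and Fst by 1.73 ± 0.41 (adjusted p = 0.00349), and the Smad7 difference was -0.77 ± 0.29 (adjusted p = 0.0461). Without the 24 h arrays the adjusted p of Smad7 was 0.114. Bambi differed by 0.18 ± 0.19 (adjusted p = 0.461).

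Slopes per 12 h were fitted within each condition, and 7 of the 28 slopes of the 4 members passed. The share of genes passing was 2.60% in untreated WT cells, 11.2% with BMP4 and 7.50% with WNT3A. In the KO line it was 1.33% untreated, 0.785% with BMP4, 1.13% on the arrays titled WNT3A and 7.03% on those titled BMP4+WNT3A. Fst rose by 2.43 ± 0.22 per 12 h in untreated WT cells (adjusted p = 0.000172). It rose by 1.24 ± 0.22 with BMP4 (adjusted p = 0.00664), by 0.81 with WNT3A (adjusted p = 0.0485) and by 0.90 on the arrays titled BMP4+WNT3A (adjusted p = 0.0329). In untreated KO cells its slope was 0.18 (adjusted p = 0.72) and with BMP4 -0.27 (adjusted p = 0.601). These Fst slopes are of the brighter probe set, and the untreated WT array at 36 h is among the 3 of high Gapdh ratio. On the dimmer set the log2 values at 12 and 36 h were 5.29 and 8.14 in untreated WT cells. They were 6.56 and 10.1 with BMP4, so that there the rise was larger with BMP4 than untreated. Smad6 rose by 0.51 ± 0.15 (adjusted p = 0.0458) and Bambi by 0.58 ± 0.17 (adjusted p = 0.0452) with BMP4 in WT cells. Smad7 had a slope of -1.17 ± 0.32 with WNT3A in WT cells (adjusted p = 0.0468). Its values there were 276, 315 and 44.6, so the slope rests on the low 36 h array. This slope passed under 2 of 9 alternatives, with adjusted p from 0.0429 to 0.102, and those of Smad6 and Bambi each under 5 of 9.

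The members did not move as a block. Over the 23 arrays, which share lines and culture series, Pearson's r of the log2 values was 0.78 between Smad6 and Bambi, 0.63 between Smad7 and Bambi and 0.50 between Smad6 and Smad7. It was 0.23 between Smad6 and Fst, -0.21 between Bambi and Fst and -0.34 between Smad7 and Fst. Smad6 stood at 0.92 with Id1, the BMP target, and at 0.30 with Sp5, a target of WNT signalling. Fst stood at 0.06 with Id1 and at 0.97 with Sp5.

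The genes most like each member were taken by Pearson's r over the same 23 arrays among the genes that passed the filter. For Smad6 they were Id3 (0.95), Id4 (0.92) and Id1 (0.92), and for Fst Nkx1-2 (0.97), Sp5 (0.97) and Axin2 (0.97). For Smad7 they were Lgr4 (0.89), Radil (0.86) and Pmepa1 (0.83). Bambi was nearest to Cpm (0.89), Bambi-ps1 (0.88) and Unc5b (0.87), and Bmper to Prdm14 (0.94), Mesp1 (0.93) and Hand1 (0.92). Bambi-ps1 is annotated as a Bambi pseudogene, so its probe set may share sequence with Bambi, and the values of Bmper rest on a few high arrays.

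**Figure D4:**
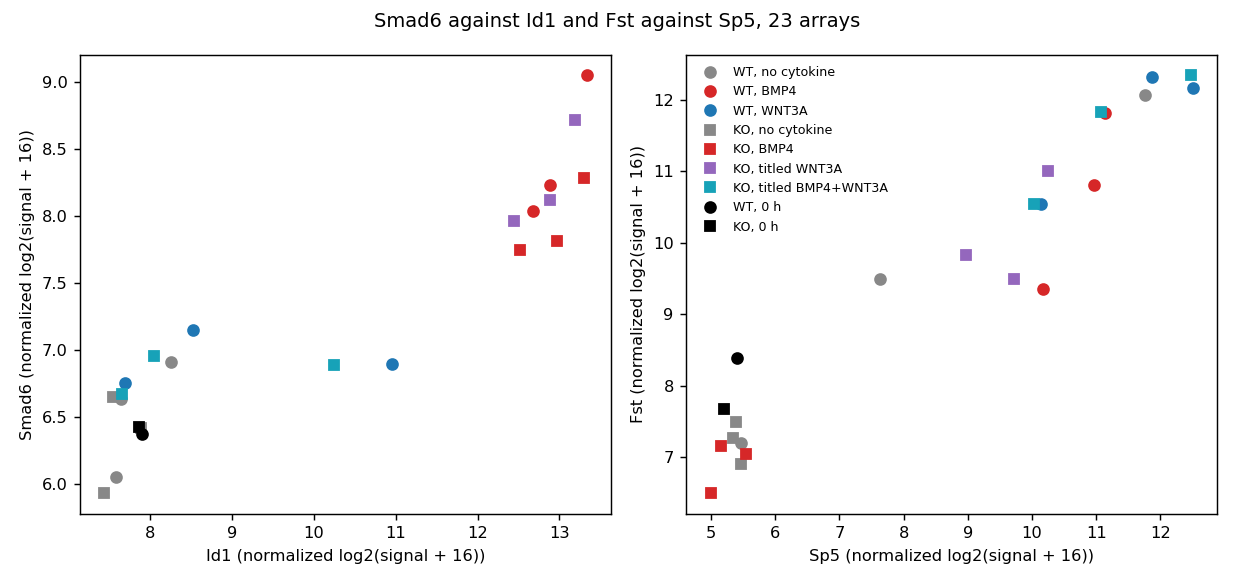
Level of Smad6 against Id1 and of Fst against Sp5 on the 23 arrays, on the normalized log2(signal + 16) scale, 1 point per array and 1 marker and colour per condition. Smad6 follows Id1 at r = 0.92 and Fst follows Sp5 at r = 0.97.

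Sp5 itself read 27.5, 181 and 3541 in untreated WT cells and 24.8 to 27.3 in untreated KO cells. In KO cells with BMP4 it read 31.1, 20.1 and 15.9. It reached 1046, 2150 and 5833 on the arrays titled BMP4+WNT3A and 815, 488 and 1269 on those titled WNT3A. In WT cells it read 1024, 1924 and 2385 with BMP4 and 1097.5, 3641 and 5914 with WNT3A. KO aggregates without cytokine or with BMP4, in which Sp5 stayed low at every time, were also those in which Fst stayed low. The levels did not match throughout, since Sp5 was nearly the same with BMP4 and WNT3A in WT cells at 12 h. Fst read 568 and 1468 on those arrays.

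The other genes of the pathway were read from lists of ligands, receptors, SMADs, targets and other modulators. With BMP4 in WT cells all 6 BMP targets rose, with a median difference of 3.67, and no gene of the other lists passed. In KO cells with BMP4 5 of 6 targets rose, Msx2 being the exception, and again no gene of the other lists passed. None of the listed genes passed with WNT3A in WT cells. The median over all genes tested lay between -0.02 and 0.00 in these comparisons.

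Of 8 other extracellular modulators measured, 1 passed on the arrays titled BMP4+WNT3A, namely Chrd, which encodes the BMP antagonist chordin and was higher by 2.41 ± 0.70 (adjusted p = 0.0492). Among the 3 ligands measured, Bmp7 was higher there by 1.29 (adjusted p = 0.00201). Of 6 other intracellular inhibitors, Pmepa1, which dampens TGF-beta signalling, was higher by 0.77 on the arrays titled WNT3A (adjusted p = 0.0433). Nodal, a ligand of the activin branch, was higher there by 0.63 (adjusted p = 0.00129), and the receptor Bmpr1b differed by -0.88 (adjusted p = 0.00187). With BMP4, the difference of KO from WT cells was -0.44 for Nodal (adjusted p = 0.0174) and 0.67 for Bmpr1b (adjusted p = 0.0151). The other genes of these lists did not pass in these comparisons, apart from Bmpr1b at -0.72 on the arrays titled BMP4+WNT3A (adjusted p = 0.0102) and the BMP targets. On those arrays 1 of 6 targets passed, Id2, at -1.05 (adjusted p = 0.0239), whereas all 6 rose on the arrays titled WNT3A, with a median of 3.29. Msx1 and Msx2 were the 2 targets lower in KO than in WT cells with BMP4.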

How the data were processed

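The authors deposited intensity values for 45101 probe sets of a mouse Affymetrix array on 23 arrays, on a linear scale, by steps not given in the sources used here. Per the labels' protocols, cDNA was amplified before biotin labelling, which bears on probe sets far from the 3′ end. Of the probe sets, 34958 carry 1 gene in the platform annotation, 932 several and 9211 none. The value 1 is a floor and holds 2.93% of values. An offset of 16 was added, log2 taken and the arrays quantile normalized, since their upper quartiles differed by up to 0.37 log2. The brightest probe set on average stood for a gene, and genes above the array median on at least 3 arrays were kept (13256). limma 3.58.1 (R 4.3.3) fitted 7 conditions with time as a block over 21 arrays (12 residual degrees of freedom) with trend and Benjamini-Hochberg adjustment. The replicate numbers are the times, which come from the labels, and the arrays of 0 h entered no test. Slopes within conditions left 7 degrees of freedom. The members and lists were chosen with earlier results of these data known. The text names the 6 members, the 3 genes most correlated with each member except Nog, and genes of the pathway lists that passed in the comparisons given for those lists. Pathway genes that passed only in other comparisons, such as 36 h against 12 h, are not reported. Scripts were tested on simulated data. Alternatives changed scaling, offset, filter, probe set choice, trend, block, arrays and labels, and left out each time in turn. Figures were drawn with matplotlib 3.10.9. The number of arrays limits the precision.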

Additional observations from a re-analysis of the deposited data

Results flagged for a closer look

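The probe set of Bambi-ps1, a Bambi pseudogene annotation that is no member and whose tests are not reported, read above the highest array without cytokine on 8 arrays. Arrays without cytokine read 48.5 to 69.6. With BMP4 it read 72.0, 70.5 and 146 in WT cells at 12, 24 and 36 h and 88.0, 99.0 and 138 in KO cells. The KO arrays titled WNT3A read 75.6 at 12 h and 89.9 at 36 h. Whether this signal is shared with Bambi was not tested.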

How the results depend on the processing

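Of 847 pairs of a member's difference or slope and an alternative, 757 kept direction and side of the threshold, 62 lost the call, 11 gained one and 17 changed sign. Of 23 called values, 5 were called under all their alternatives. BMP4 in WT cells called 2 of 4 members, and 1 under the values as deposited, median centring, an offset of 64, no filter, the mean of probe sets, each probe set, no trend, only the arrays compared, no replicate block, without the 6 KO arrays and without the 3 arrays of high Gapdh ratio. The main fit blocks on time, and without this pairing block the arrays titled WNT3A called 1 of 4 and the comparison of the titled groups 0 of 4. The 7 called slopes became 2 with no filter, 2 with each probe set and 3 with no trend. With only the arrays compared, BMP4 in KO cells called 3 and KO against WT with BMP4 called 0. With labels exchanged, arrays titled WNT3A called 1, arrays titled BMP4+WNT3A 2, and the latter against BMP4 1. The cause was not tested.

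Leaving out each time in turn gave 1 to 3 called members for BMP4 in WT cells, 0 to 1 for WNT3A, 0 to 2 for BMP4 against WNT3A, 0 to 2 for BMP4 in KO cells, 1 to 3 for arrays titled WNT3A, 0 to 1 for arrays titled BMP4+WNT3A, 0 to 2 between the titled groups, 0 to 4 for BMP4+WNT3A against BMP4, 0 for the interaction and for KO against WT untreated, 0 to 2 for KO against WT with BMP4 and 2 for 36 h against 12 h. Signs turned, with labels exchanged, for the titled groups: Smad7 -0.33 and Bambi -0.14 (titled WNT3A), Smad7 1.33 and Bambi 0.82 (titled BMP4+WNT3A), Smad6 1.43, Smad7 1.67, Bambi 0.95 and Fst -1.46 (between them) and Smad6 0.32 (against BMP4). Leaving out each time moved Bambi from -0.29 to 0.054 (titled BMP4+WNT3A, turned without 24 h) and, turned without 36 h, Smad7 from -0.74 to 0.60 (WNT3A in WT), Bambi from -0.012 to 0.063 (interaction), Smad7 from -0.38 to 0.48 and Bambi from -0.12 to 0.027 (KO against WT untreated) and Bambi from -0.079 to 0.016 (with BMP4). Without the 3 arrays of high Gapdh ratio they turned for Bambi 0.072 (titled BMP4+WNT3A) and Smad7 0.11 (KO against WT untreated).

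Calls over all genes moved more: BMP4 in WT cells called 453 genes (12 to 467 over the alternatives), WNT3A 64 (0 to 268), BMP4 against WNT3A 99 (1 to 145), BMP4 in KO cells 74 (0 to 344), titled WNT3A 1260 (102 to 1406), titled BMP4+WNT3A 898 (0 to 1260), between them 45 (1 to 45), the last against BMP4 1026 (12 to 1120), the interaction 0 (0 to 29), KO against WT untreated 13 (0 to 38) and with BMP4 958 (7 to 988), and time 5125 (3283 to 7457). Slopes with a time left out, time differences without an end time or block, and titled groups without their 6 arrays could not be fitted. Dim probe sets, Nog and Bmper among them, limit what can be seen.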
